A study of Homo sapiens with 18 samples.

Results

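The genes described here are 9 genes of growth factor signalling through the EGF receptor family and MET: the receptors EGFR, ERBB2, ERBB3 and MET, the ligands AREG, EREG, HBEGF and TGFA, and the feedback inhibitor ERRFI1. They were chosen by name, by a rule that uses no measured value although earlier results of these data were known, out of 20374 genes with a gene row in at least 1 of the 3 deposited tables. RNA came from cultures of 3 human lung carcinoma lines, each given 5 µM CCS1477 or the solvent DMSO for 24 h, with 3 libraries in each of the 6 groups and 18 in all. CCS1477 (inobrodib) is a small molecule that binds the bromodomain of the paired coactivators p300 and CBP, which acetylate histones at enhancers and promoters. H460 is labelled a large cell carcinoma line and H2023 a squamous one, and the series calls both NRF2-activated, NRF2 being the transcription factor of the antioxidant response. ABC-1 is labelled an adenocarcinoma line and called wildtype in the series. The dose is that of the sample descriptions, and the series text gives it as 5 mM. The labels name no separate cultures for the replicates, so p-values measure library-to-library spread, part or all of which can be technical.

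EGFR, ERBB2 (HER2) and ERBB3 (HER3) are receptor tyrosine kinases that signal as pairs to the RAS-ERK and PI3K pathways. ERBB2 binds no known ligand and ERBB3 has little kinase activity of its own, so each depends on a partner. AREG (amphiregulin), EREG (epiregulin), HBEGF and TGFA are made as membrane proteins, released by ADAM proteases, and bind EGFR on the same or on neighbouring cells. MET is the receptor of hepatocyte growth factor and can maintain signalling when EGFR is blocked, and ERRFI1 (MIG6) binds the kinase domain of activated EGFR and restrains it. In lung cancers EGFR, ERBB2 and MET are known drivers and drug targets.

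The H460 libraries were the deepest, with 26652298 to 33568180 reads each. Those of H2023 held 15352631 to 18261159 reads and those of ABC-1 held 14483979 to 17483292. Levels are given as CPM, the reads of the gene divided by all reads of its library on the usual CPM scale, and as CPM per kb of exon where genes are compared with each other. CCS1477 replicate 1 of H460 stood apart: 0.795% of its reads were mitochondrial, where the remaining 5 libraries of H460 had 1.77 to 2.06%. It also stood apart over all tested genes, by the squared difference of 2 libraries over counting variance, averaged over genes. This value was 38.0 and 41.9 against CCS1477 replicates 2 and 3. Between replicates 2 and 3 it was 6.32, and among the DMSO libraries of H460 it was 5.25 to 6.71. The keratins KRT8 and KRT18 were abundant in each line, at 1202 and 603 CPM in untreated H460, 3225 and 2078 CPM in H2023 and 2895 and 1502 CPM in ABC-1. EPCAM, a surface protein of epithelia, stood at 0.659 CPM in H460, where the epithelial cadherin CDH1 has no row. Of 6 squamous markers only TP63 has a row in the H2023 table, at 1.84 CPM in DMSO libraries, so the squamous label of H2023 is not borne out by these markers. ABC-1 had 149 CPM of the squamous marker SOX2, and of 5 adenocarcinoma markers MUC1 at 98.4 CPM and NKX2-1 at 1.34 CPM had a row. Some markers of other cell types moved with treatment too: the sum of the fibroblast markers with a row, 2 of 3 in H460 and 1 of 3 in ABC-1, was 27.0 to 29.6 CPM and then 7.28 to 8.37 CPM in H460, and 6.84 to 8.03 CPM and then 22.6 to 23.6 CPM in ABC-1. In H2023 the 1 fibroblast marker with a row overlapped between groups, at 6.37 to 7.56 CPM and then 5.16 to 7.82 CPM. CDH1 fell from 47.4 to 8.11 CPM in H2023 and went from 244 to 315 CPM in ABC-1. The part of these markers in the results below was not tested.

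The promoter sequences of the ligands AREG, EREG and HBEGF are shown because AREG and EREG, neighbours on chromosome 4, fell in H2023, while HBEGF rose in H460 and ABC-1 and missed the test threshold in H2023. Each run is the 250 bases before the RefSeq start site, written 5′ to 3′ on the strand of the gene, from GRCh38.p14. Positions were chr4:74444886-74445135 for AREG (plus strand), chr4:74364895-74365144 for EREG (plus strand) and chr5:140346604-140346853 for HBEGF (minus strand). Capitals mark matches on either strand to any of 5 motifs searched: AP-1 (TGANTCA), the cyclic AMP response element CRE (TGACGTCA), the core of the antioxidant response element (TGACNNNGC), the GC box (GGGCGG) and the TEAD motif (GGAATG).
AREG: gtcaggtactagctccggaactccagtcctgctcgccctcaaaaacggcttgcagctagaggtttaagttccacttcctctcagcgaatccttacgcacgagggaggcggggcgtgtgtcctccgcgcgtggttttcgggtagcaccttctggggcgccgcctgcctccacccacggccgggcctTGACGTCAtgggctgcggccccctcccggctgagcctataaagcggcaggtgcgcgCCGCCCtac
EREG: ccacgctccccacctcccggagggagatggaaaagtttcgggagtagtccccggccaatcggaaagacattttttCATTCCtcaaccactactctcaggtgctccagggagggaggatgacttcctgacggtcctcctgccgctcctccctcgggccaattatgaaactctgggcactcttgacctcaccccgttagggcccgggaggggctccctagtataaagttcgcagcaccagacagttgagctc
HBEGF: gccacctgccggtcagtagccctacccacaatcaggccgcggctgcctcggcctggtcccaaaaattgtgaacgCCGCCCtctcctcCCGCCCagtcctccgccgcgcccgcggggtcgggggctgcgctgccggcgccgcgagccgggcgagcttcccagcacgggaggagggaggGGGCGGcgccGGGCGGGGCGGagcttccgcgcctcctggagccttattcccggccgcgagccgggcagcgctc
The AREG window held 1 CRE, from -65 to -58 relative to the start, and 1 GC box. The CRE was found in 1.65% of 35116 RefSeq promoter windows of this length. The EREG window held 1 match to the TEAD motif, from -175 to -170, a motif found in 11.9% of windows. In the HBEGF window there were 5 GC boxes, of which 1 pair overlapped by 1 base, and 42.6% of windows held at least 1. None of the 3 held an AP-1 match or an antioxidant response element core, which 6.57% and 10.9% of windows held. A match describes these letters only.

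Before treatment the receptors were lowest in H460 and the ligands highest in H2023. The tables were normalized separately, so these levels stand side by side with no test. EGFR (ENSG00000146648, chr7:55019021-55211628, plus strand; positions of genes are those of GENCODE 29 on GRCh38) stood at 850 ± 29.9 CPM in ABC-1 (SD, n = 3, as throughout), 658 ± 19.95 CPM in H2023 and 62.1 ± 1.42 CPM in H460. ERBB3 spanned the widest range among the receptors, from 153 ± 3.57 CPM in ABC-1 and 30.0 ± 3.52 CPM in H2023 to 0.605 CPM in H460, where the 3 libraries held 50 reads in all. ERBB2 took the same order, at 149.7, 51.3 and 27.8 CPM. MET instead was highest in H2023, at 495 ± 12.3 CPM, against 268 ± 5.99 CPM in ABC-1 and 145.8 ± 4.32 CPM in H460. Among the ligands AREG was 16.7 times as high in H2023 (79.3 ± 1.20 CPM) as in ABC-1 (4.76 ± 0.909 CPM), and stood at 1.62 ± 0.211 CPM in H460. EREG, at 44.3 ± 2.47 CPM in H2023, was 53.6 times its level in H460 and has no row in the ABC-1 table. The order of the lines was H2023, ABC-1 and H460 for TGFA (30.4, 16.9 and 0.449 CPM), HBEGF (13.2, 5.02 and 4.77 CPM) and ERRFI1 (262, 157 and 47.2 CPM). Neighbours in these orders did not overlap in their DMSO libraries, except ABC-1 and H460 for HBEGF.

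Per kb of the union of exons MET had the highest level of the 9 genes in H460 and H2023, and EGFR in ABC-1. In H460 the level of MET was 20.7 ± 0.613 CPM per kb, followed by ERRFI1 at 11.3 ± 0.529 and EGFR at 4.96 ± 0.113 CPM per kb. In H2023 MET stood at 70.4 ± 1.75 CPM per kb, ERRFI1 at 62.6 ± 1.31, EGFR at 52.5 ± 1.59 and the ligand AREG at 48.1 ± 0.726 CPM per kb, far above the 7.76 ± 0.432 CPM per kb of EREG. In ABC-1 EGFR stood at 67.9 ± 2.39 CPM per kb, MET at 38.1 ± 0.851, ERRFI1 at 37.5 ± 1.64, ERBB3 at 16.9 ± 0.395 and ERBB2 at 14.5 ± 0.498 CPM per kb. MET and ERRFI1 in ABC-1 overlapped in this scale. The lengths are the union of annotated exons, and the order depends on that choice. By the longest transcript ERRFI1 was first in H2023 (84.5 against 74.7 CPM per kb of MET) and stood above MET in ABC-1 (50.6 against 40.4). The ERBB2 union of 10321 bases is longer than its longest transcript of 4930 bases, by which ERBB2 stood above ERBB3 in ABC-1 (30.4 against 25.9 CPM per kb). MET in H460 and EGFR in ABC-1 were first by both lengths.

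**Figure D1:**
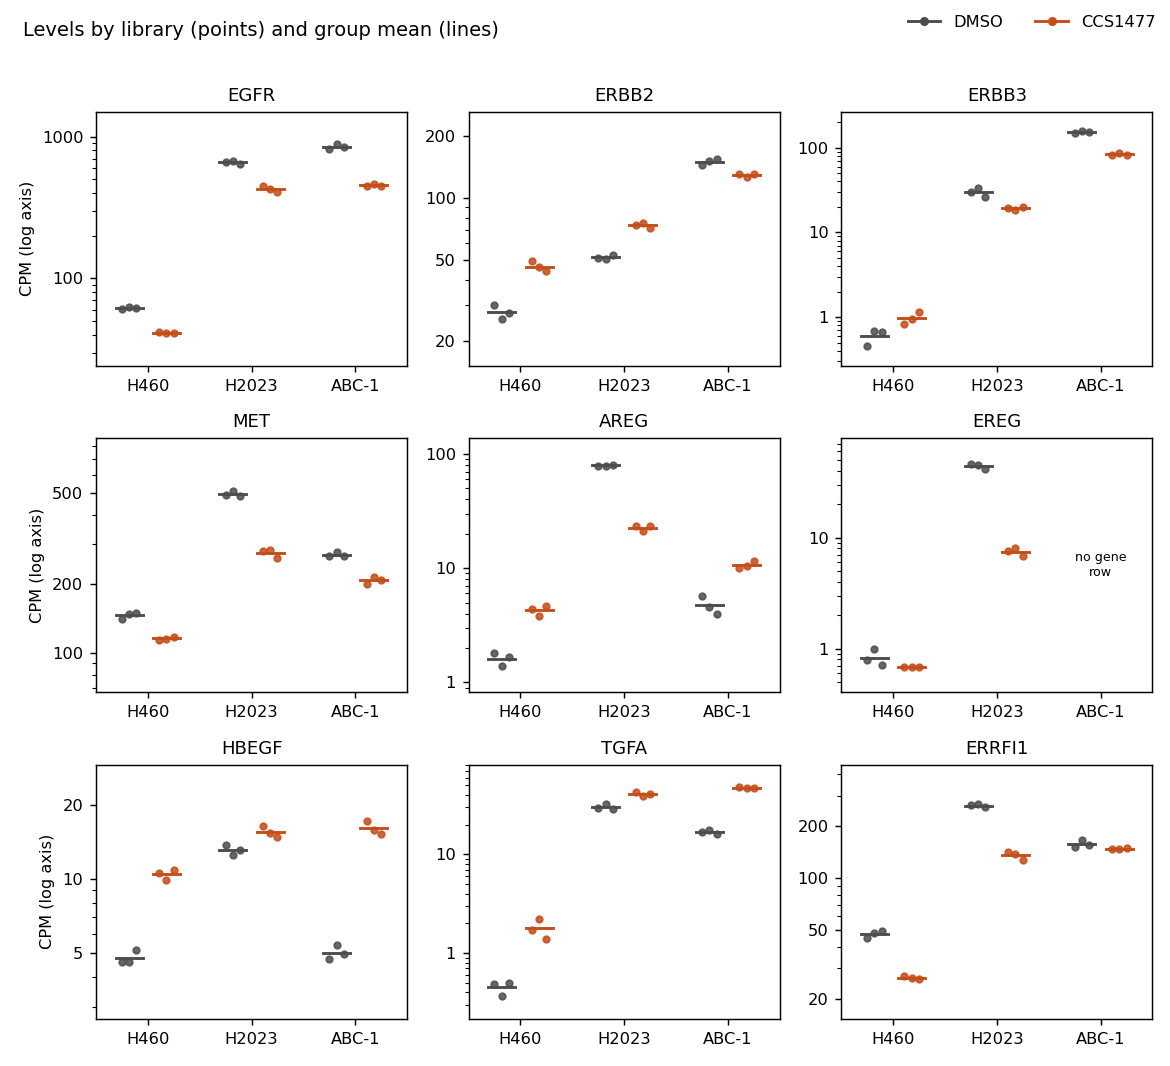
Levels (CPM, log axis) of the 9 genes in each library (points) with the mean of each group (short lines), for DMSO in grey and CCS1477 in orange. EGFR and MET fell in each line, ERBB2 was higher with CCS1477 in H460 and H2023 and lower in ABC-1, and AREG fell from 79.3 to 22.7 CPM in H2023 while it was higher with CCS1477 in H460 and ABC-1.

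CCS1477 lowered the receptors EGFR and MET and the inhibitor ERRFI1 in each line, whereas AREG and HBEGF rose in H460 and ABC-1, TGFA rose in H2023 and ABC-1, and AREG and EREG fell in H2023. By limma, with p adjusted over all tested genes and a threshold of 0.05, 4 genes of the set were higher in H460 (ERBB2, AREG, HBEGF and TGFA) and 3 lower (EGFR, MET and ERRFI1), of 7 tested, where TGFA could enter the test only by being higher. In H460 56.1% of all 13516 tested genes passed, 28.2% higher and 27.9% lower. In H2023 2 genes were higher (ERBB2 and TGFA), 6 lower (EGFR, ERBB3, MET, AREG, EREG and ERRFI1) and HBEGF missed the threshold, where 60.6% of 14572 tested genes passed, 28.6% higher and 31.9% lower. In ABC-1 3 were higher (AREG, HBEGF and TGFA) and 5 lower (EGFR, ERBB2, ERBB3, MET and ERRFI1), where 66.1% of 13543 tested genes passed, 33.5% higher and 32.6% lower. The median log2 change of the tested members was 0.66 (H460), -0.68 (H2023) and -0.21 (ABC-1), beside 0.00092, -0.0089 and 0.0139 over all tested genes. In each line the share of members called was above that of all tested genes. Calls were this common, though, and the members were few and chosen with earlier results of these data known. Their count is therefore not read as a result, and the sizes and directions below carry the description. In RNA of a bulk culture, fewer cells that express a gene and less RNA per cell cannot be told apart.

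ERBB3 and EREG were too low to test in H460, where neither reached 1 CPM in 3 of the 6 libraries. TGFA passed that filter in H460 only through its CCS1477 libraries, as none of the DMSO libraries reached 1 CPM, so its call there is no independent support. All 9 genes were tested in H2023, and the 8 with a row were tested in ABC-1. On the CPM scale and in the deposited log2 values the DMSO and CCS1477 libraries of a line did not overlap for any of these genes. The shares of all tested genes below are from the deposited log2 values. In H460 5 were higher and 4 lower with CCS1477, beside 64% of all tested genes without overlap there, 32.3% higher and 31.7% lower. These H460 counts include ERBB3 (higher) and EREG (lower), which are not among the tested genes and rest on few reads. In H2023 3 were higher and 6 lower, beside 65.2% of tested genes, 31.2% higher and 34% lower. In ABC-1 3 were higher and 5 lower, beside 70.4% of tested genes, 35.8% higher and 34.6% lower.

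EGFR fell in each line. In H460 the DMSO libraries stood at 60.6, 63.4 and 62.2 CPM and the CCS1477 libraries at 42.0, 41.3 and 41.1 CPM, a log2 change of -0.65 ± 0.04 (SE, as for each change below; adjusted p = 9.72e-06). In H2023 the values were 660.4, 676 and 637 CPM with DMSO and 447, 426 and 409 CPM with CCS1477, a log2 change of -0.67 ± 0.04 (adjusted p = 1.67e-07). ABC-1 had 821, 881 and 848 CPM with DMSO and 446, 463 and 451 CPM with CCS1477, a log2 change of -0.97 ± 0.04 (adjusted p = 3.37e-09). The treated libraries of ABC-1 and H2023 overlapped, although their untreated libraries did not. The log2 change of EGFR in ABC-1 was lower than that in H460 by 0.31 ± 0.05 (difference H460 minus ABC-1, adjusted p = 4.36e-04) and than that in H2023 by 0.29 ± 0.06 (adjusted p = 0.00116). Between H460 and H2023 the difference was 0.02 ± 0.06 (adjusted p = 0.807).

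MET also fell in each line, most in H2023. There the DMSO libraries held 491, 509 and 486 CPM and the CCS1477 libraries 278, 280.0 and 259.9 CPM, a log2 change of -0.91 ± 0.04 (adjusted p = 1.48e-08). In H460 MET went from 140.9, 147.7 and 148.9 CPM to 114, 115 and 118 CPM (-0.41 ± 0.04, adjusted p = 8.28e-05). In ABC-1 it went from 265, 275 and 264 CPM to 200.6, 215 and 209 CPM (-0.42 ± 0.04, adjusted p = 2.44e-06). The change of MET in H2023 was lower than in H460 by 0.51 ± 0.06 (adjusted p = 2.38e-05), and the H2023 minus ABC-1 difference was -0.49 ± 0.06 (adjusted p = 7.28e-06). H460 and ABC-1 differed by 0.02 ± 0.06 (adjusted p = 0.829). MET (ENSG00000105976) lies at chr7:116672390-116798386 on the plus strand.

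ERBB2, the partner receptor without a ligand, went in opposite directions between lines. In H460 it rose from 30.1, 25.8 and 27.5 CPM to 49.0, 45.9 and 43.9 CPM (0.66 ± 0.07, adjusted p = 9.56e-05). In H2023 it rose from 51.1, 50.4 and 52.4 CPM to 73.7, 75.4 and 71.2 CPM (0.46 ± 0.04, adjusted p = 4.81e-06). In ABC-1 it fell from 144, 150.7 and 154 CPM to 130.1, 126 and 130.2 CPM (-0.28 ± 0.04, adjusted p = 1.11e-04). The changes in H460 and in H2023 exceeded that in ABC-1 by 0.94 ± 0.08 (adjusted p = 9.48e-07) and 0.74 ± 0.06 (adjusted p = 1.06e-07). The difference of 0.20 ± 0.08 between H460 and H2023 missed the threshold (adjusted p = 0.0842), and passed it without DMSO replicate 1 of H460 (0.25, adjusted p = 0.0254). ERBB2 (ENSG00000141736, chr17:39687914-39730426, plus strand) shares exon bases with PGAP3 and MIEN1 on the opposite strand. The use of strand in counting is not given in the sources used here, so reads of these genes may not be told apart.

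ERBB3, the receptor that links to PI3K, fell in H2023 and ABC-1. In ABC-1 it went from 149.8, 157 and 153 CPM to 82.0, 86.8 and 82.9 CPM (-0.93 ± 0.04, adjusted p = 5.83e-09). In H2023 it went from 30.3, 33.4 and 26.4 CPM to 19.4, 18.6 and 19.8 CPM (-0.68 ± 0.09, adjusted p = 4.95e-05). The H2023 minus ABC-1 difference was 0.25 ± 0.10 (adjusted p = 0.0578), within a range of 0.16 to 0.33 over its alternatives. It passed the threshold without DMSO replicate 2 of H2023 (0.33, adjusted p = 0.00507) and with 1 CPM added before the log (0.26, adjusted p = 0.0388), and fell to 0.16 without DMSO replicate 3 of H2023 (adjusted p = 0.128). In H460 ERBB3 held 12, 19 and 19 reads with DMSO and 28, 29 and 37 with CCS1477, or 1.61 times as many CPM summed over libraries (exact 95% counting limits 1.13 and 2.31). It was below the filter, and over libraries its log2 change of 0.54 missed the threshold with no filter (adjusted p = 0.0954) and passed it in one fit over all 18 libraries, which shares the spread of the lines (adjusted p = 0.00157). ERBB3 (ENSG00000065361, chr12:56076799-56103505) overlaps AC034102.2 on its own strand, which has a row of 530 reads over the 6 H460 libraries against 144 for ERBB3. In the tests between lines ERBB3 passed the filter only through the other line, and its H460 value rests on 12 to 37 reads per library. With that limit, H460 minus H2023 was 1.21 ± 0.22 (adjusted p = 0.00137) and H460 minus ABC-1 was 1.46 ± 0.19 (adjusted p = 4.23e-05).

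AREG showed the widest difference between lines among the ligands. In H2023 it fell from 78.8, 78.5 and 80.7 CPM to 23.4, 21.1 and 23.5 CPM, a log2 change of -1.85 ± 0.05 (adjusted p = 9.69e-10), and only 1.06% of tested genes fell at least as far. In ABC-1 it rose from 5.73, 4.60 and 3.94 CPM to 10.1, 10.5 and 11.7 CPM (1.09 ± 0.14, adjusted p = 4.19e-05). H460 held 48, 38 and 47 reads of AREG with DMSO and 147, 117 and 150 with CCS1477, or 1.80, 1.39 and 1.66 CPM and 4.38, 3.84 and 4.66 CPM (1.27 ± 0.15, adjusted p = 2.20e-04). The lines thus drew closer: untreated H2023 had 79.3 CPM beside 4.76 CPM in ABC-1, and treated H2023 had 22.7 CPM beside 10.8 CPM. The change in H460 exceeded that in H2023 by 3.12 ± 0.14 (adjusted p = 1.68e-08), and H2023 minus ABC-1 was -2.94 ± 0.15 (adjusted p = 2.06e-09). H460 and ABC-1 differed by 0.18 ± 0.21 (adjusted p = 0.526), which turned to -0.024 with 1 CPM added before the log in place of the deposited constant (adjusted p = 0.926).

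EREG, the neighbour of AREG, had the lowest log2 change of the 9 genes in H2023. It went from 46.2, 45.3 and 41.5 CPM to 7.62, 7.98 and 6.79 CPM, a log2 change of -2.58 ± 0.08 (adjusted p = 1.60e-09), and 49 of 14572 tested genes (0.336%) fell at least as far. In H460 it stood at 21, 27 and 20 reads with DMSO and 23, 21 and 22 reads with CCS1477, a ratio of CPM of 0.830 (exact 95% counting limits 0.582 and 1.18), so a change was not detectable at this depth. EREG entered the test of the difference between these lines only through H2023, as no H460 library reached 1 CPM. That difference, H460 minus H2023, was 2.30 ± 0.18 (adjusted p = 1.49e-06) and describes the fall in H2023 beside 20 to 27 reads per library in H460.

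EREG (ENSG00000124882, chr4:74365143-74388751) and AREG (ENSG00000109321, chr4:74445134-74455009) lie 56.4 kb apart on the plus strand, between the ligand genes EPGN and BTC. EPGN (epigen, ENSG00000182585) ends 49.8 kb before EREG, and BTC (betacellulin, ENSG00000174808) begins 289.7 kb after AREG on the minus strand. The neighbours were most abundant in different lines. EPGN stood at 115, 116 and 120.5 CPM in untreated H460 and fell to 73.0, 72.1 and 72.3 CPM (-0.77 ± 0.04, adjusted p = 2.70e-06), in the line where untreated AREG was below 2 CPM. In ABC-1 EPGN fell from 5.22, 3.83 and 4.14 CPM to 0.572, 0.415 and 0.564 CPM (-2.63 ± 0.20, adjusted p = 5.90e-07), while AREG rose there. EPGN passed the filter in ABC-1 only through its DMSO libraries, as the CCS1477 libraries held 7 to 10 reads. It could enter that test only by being lower, so its call there is no independent support. In H2023 EPGN held 12, 22 and 20 reads with DMSO and 4, 6 and 5 with CCS1477, too low to test. BTC fell in H2023 from 8.47, 9.04 and 7.47 CPM to 4.75, 4.73 and 4.73 CPM (-0.83, adjusted p = 1.10e-04), missed the threshold in H460 (0.38, adjusted p = 0.134) and has no row in the ABC-1 table. In H2023 each of the 3 tested ligand genes of the stretch fell, where 31.9% of all tested genes were called lower. BTC was named after its values were seen, so this count is not read as a result about the stretch. In ABC-1 EPGN, with the limit above, and AREG moved in opposite directions.

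**Figure D2:**
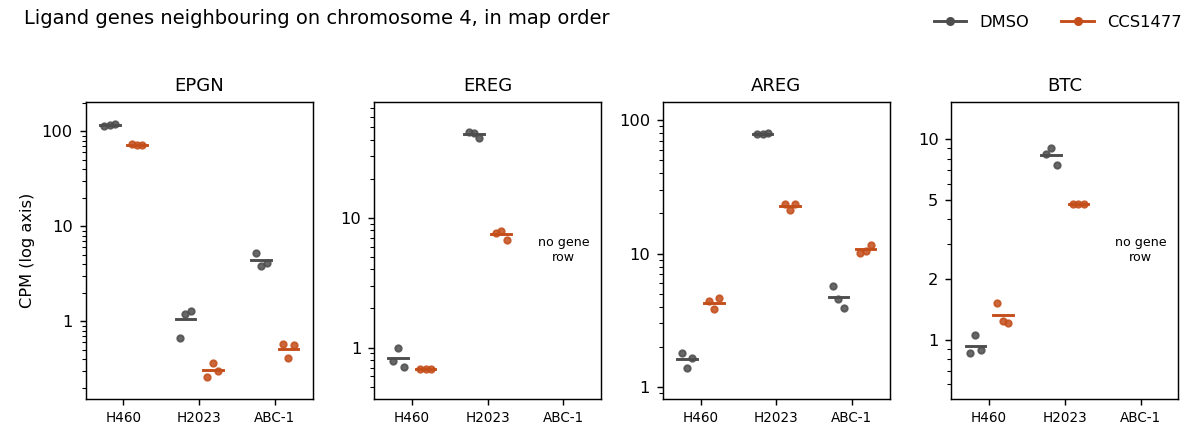
CPM (log axis) of the ligand genes EPGN, EREG, AREG and BTC, in their order on chromosome 4, in each library (points) with group means (lines). EPGN was highest in H460 (117 CPM in DMSO) and EREG, AREG and BTC in H2023, and in ABC-1 EPGN fell while AREG rose.

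HBEGF, whose product also serves as the receptor of diphtheria toxin, rose in H460 and ABC-1. In H460 it went from 4.58, 4.60 and 5.13 CPM to 10.6, 9.90 and 10.9 CPM (1.04 ± 0.09, adjusted p = 4.81e-05). In ABC-1 it went from 4.71, 5.37 and 4.97 CPM to 17.2, 15.8 and 15.2 CPM (1.57 ± 0.11, adjusted p = 1.90e-07). In H2023, where its untreated level was highest, the libraries stood at 13.8, 12.5 and 13.1 CPM with DMSO and at 16.4, 15.4 and 14.9 CPM with CCS1477. The change, 0.19 ± 0.08 in log2, was not called (adjusted p = 0.0601), and was called with scaling by library totals (0.24, adjusted p = 0.0235), by relative log expression (0.20, adjusted p = 0.0447) and with transcript rows added (0.19, adjusted p = 0.0433), within a range of 0.0235 to 0.164 over its alternatives. With CCS1477 the 3 lines stood within 9.90 and 17.2 CPM. The change in H460 exceeded that in H2023 by 0.86 ± 0.11 (adjusted p = 1.13e-04). That in ABC-1 exceeded both, with H460 minus ABC-1 at -0.53 ± 0.14 (adjusted p = 0.00662) and H2023 minus ABC-1 at -1.39 ± 0.12 (adjusted p = 5.95e-07). HBEGF (ENSG00000113070) lies at chr5:140332843-140346631.

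TGFA, transforming growth factor alpha, rose in ABC-1 and H2023. ABC-1 went from 16.8, 17.8 and 16.1 CPM to 47.8, 47.7 and 46.7 CPM (1.42 ± 0.06, adjusted p = 7.09e-09). H2023 went from 29.7, 32.5 and 29.1 CPM to 43.4, 39.3 and 41.1 CPM (0.38 ± 0.06, adjusted p = 3.38e-04). Treated ABC-1 thus stood above treated H2023, while untreated ABC-1 had been below untreated H2023. In H460 there were 13, 10 and 14 reads with DMSO and 58, 67 and 45 with CCS1477, a ratio of CPM of 3.93 (exact 95% counting limits 2.74 and 5.77; log2 change 1.64 ± 0.24, adjusted p = 6.38e-04, in a test it entered only through its CCS1477 libraries). The change in H2023 was lower than in ABC-1, at -1.03 ± 0.09 (adjusted p = 4.76e-07), and H460 exceeded H2023 by 1.25 ± 0.21 (adjusted p = 5.93e-04), or by 0.52 with 1 CPM added before the log. H460 and ABC-1 differed by 0.22 ± 0.21 (adjusted p = 0.431), and this value turned to -0.49 and passed the threshold with 1 CPM added (adjusted p = 0.0152). TGFA (ENSG00000163235) lies at chr2:70447280-70554193 on the minus strand.

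**Figure D3:**
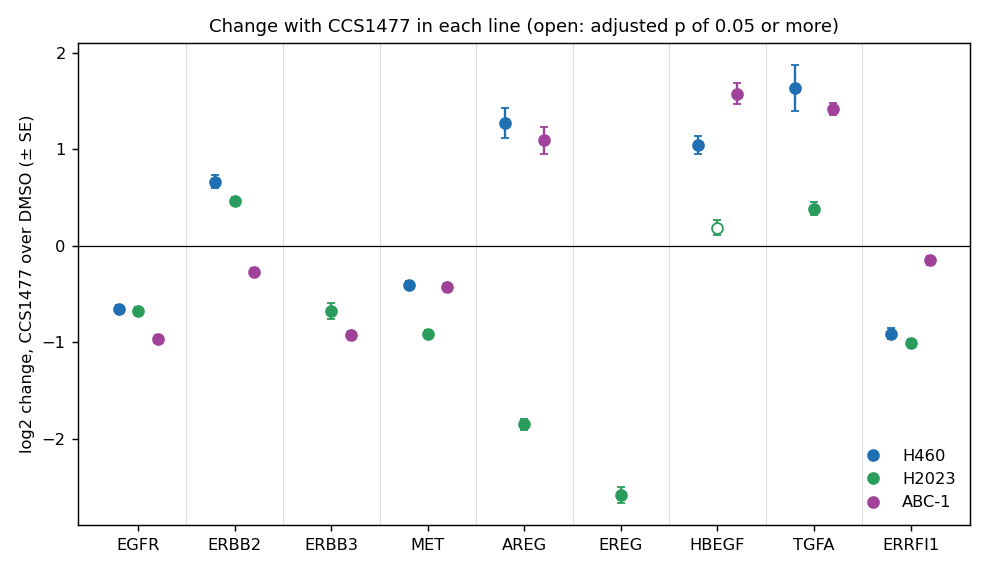
Log2 change (CCS1477 over DMSO, ± SE, 3 libraries against 3) of each tested gene in H460 (blue), H2023 (green) and ABC-1 (purple), with an open circle where the adjusted p was 0.05 or more. EGFR, MET and ERRFI1 lie below 0 in each line, ERBB2 lies below 0 in ABC-1 alone, and AREG is at -1.85 in H2023 against 1.27 in H460 and 1.09 in ABC-1.

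Of the reads of AREG, EREG, HBEGF and TGFA in H2023, the largest share passed from AREG to TGFA. TGFA in ABC-1 and HBEGF in H460 held the largest share of these reads with and without CCS1477. The summed level of AREG, EREG, HBEGF and TGFA in H2023 was 164 to 169 CPM over the DMSO libraries and 83.8 to 90.8 CPM over the CCS1477 libraries. In ABC-1 the sum, without EREG, was 25.0 to 27.8 CPM and then 73.6 to 75.2 CPM, and in H460 it was 7.34 to 8.00 CPM and then 16.6 to 17.7 CPM. AREG and EREG took 47.4% ± 1.43 and 26.5% ± 1.11 of these reads in untreated H2023, and 26.1% ± 1.04 and 8.60% ± 0.843 with CCS1477. TGFA took 18.2% ± 0.923 and then 47.4% ± 0.488, and HBEGF 7.87% ± 0.397 and then 17.9% ± 0.600. In ABC-1 TGFA held 63.4% ± 1.54 with DMSO and 63.8% ± 0.532 with CCS1477. In H460 HBEGF was the largest share, at 62.2% ± 2.22 and 60.8% ± 1.15. These are shares of reads, not of molecules, since the genes differ in length. The shares and sums leave out the ligand genes EPGN, EGF and BTC. In H460 EPGN stood at 117 CPM with DMSO and 72.4 CPM with CCS1477, each above the sum there. EGF stood at 17.0 and then 14.4 CPM in H460, and BTC at 0.935 and then 1.33 CPM. The rise of the sum in H460 therefore does not describe all ligand reads of that line.

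**Figure D4:**
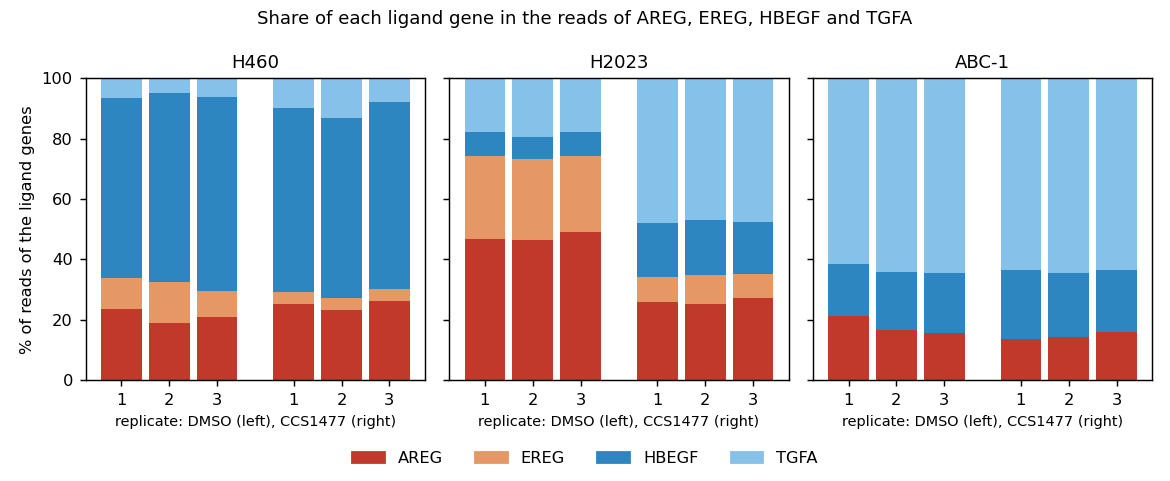
Percent of the reads of AREG, EREG, HBEGF and TGFA that each gene took, stacked to 100% for each library, with DMSO replicates on the left and CCS1477 replicates on the right of each panel. In H2023 AREG and EREG shrank from 47.4% and 26.5% to 26.1% and 8.60%, while TGFA in ABC-1 stayed near 63%, with no EREG row in that line.

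ERRFI1, the inhibitor of EGFR, fell strongly in H460 and H2023 and little in ABC-1. In H460 it went from 44.8, 47.8 and 49.1 CPM to 26.9, 26.2 and 26.0 CPM (-0.91 ± 0.05, adjusted p = 5.60e-06). In H2023 it went from 264, 266 and 256 CPM to 141, 137 and 128 CPM (-1.004 ± 0.04, adjusted p = 1.18e-08). In ABC-1 the values were 152, 165 and 154.6 CPM with DMSO and 147.0, 146.6 and 148 CPM with CCS1477, a log2 change of -0.15 ± 0.05 (adjusted p = 0.0114). This change was -0.09 with scaling by library totals (adjusted p = 0.0367) and -0.10 without DMSO replicate 2 of ABC-1, the highest library, within a range of adjusted p from 0.00245 to 0.0385. The ABC-1 change exceeded that of the other lines: H460 minus ABC-1 was -0.76 ± 0.07 (adjusted p = 1.70e-06) and H2023 minus ABC-1 was -0.85 ± 0.06 (adjusted p = 1.01e-07). H460 and H2023 differed by 0.09 ± 0.07 (adjusted p = 0.316). ERRFI1 (ENSG00000116285, chr1:8004404-8026308, minus strand) shares exon bases with AL034417.4 on the opposite strand, which held 80 to 125 reads per table.

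Of the differences between lines, 6 of 9 genes passed for H460 minus H2023, all of them higher in H460, where 27.7% of 14259 genes passed, 16.5% higher and 11.2% lower. For H460 minus ABC-1 it was 5 of 8, 3 higher and 2 lower, against 45.1% of 13535 genes, 24.1% higher and 21.1% lower. For H2023 minus ABC-1 it was 7 of 8, 2 higher and 5 lower, against 41.9% of 14039 genes, 20.2% higher and 21.7% lower. Without ERBB3 and EREG, which were too low to test in H460, 4 of 7 genes passed for H460 minus H2023, and without ERBB3 4 of 7 for H460 minus ABC-1. Those of H460 minus H2023 still include TGFA, whose H460 values rest on 10 to 67 reads per library. Its difference ran from 0.52 to 1.46 over its alternatives. The series sets the NRF2-activated lines against the wildtype line. Their mean change, less that of ABC-1, passed for all 8 genes with a value, 3 higher and 5 lower, against 46.1% of 13647 genes, 23% higher and 23.1% lower. In that contrast ERBB2 (0.84 ± 0.06), ERBB3 (0.85 ± 0.15, with its low H460 reads) and EGFR (0.30 ± 0.05) were higher, and AREG (-1.38 ± 0.15), HBEGF (-0.96 ± 0.10), ERRFI1 (-0.81 ± 0.06), TGFA (-0.41 ± 0.15) and MET (-0.24 ± 0.05) lower. AREG changed in opposite directions in H460 and H2023, so its mean stands for neither line. The TGFA call (adjusted p = 0.0363) ended with limma-voom (adjusted p = 0.113) and without any 1 of 10 libraries (adjusted p = 0.0504 to 0.0899), within a range of 2.11e-05 to 0.113. These were DMSO replicates 1 and 3 of H460, DMSO replicate 2 and CCS1477 replicates 2 and 3 of H2023, and DMSO replicates 1 and 3 and each CCS1477 replicate of ABC-1. NRF2 status and the other properties of the single wildtype line cannot be told apart.

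Without CCS1477 replicate 1 of H460, the library that stood apart, each of the 7 tested genes of H460 was still past the threshold. Their log2 changes were then -0.66 for EGFR, 0.62 for ERBB2, -0.40 for MET, 1.26 for AREG, 1.04 for HBEGF, 1.64 for TGFA and -0.92 for ERRFI1.

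Of the other ligands and receptors of the pathway, HGF and NRG1 fell in H2023. HGF, the ligand of MET, has a row only in the H2023 table, where it fell from 86.2, 86.4 and 88.5 CPM to 12.1, 14.7 and 12.9 CPM (-2.76 ± 0.07, adjusted p = 4.30e-10). NRG1 (neuregulin), a ligand of ERBB3, fell in H2023 from 86.0, 88.6 and 89.6 CPM to 28.1, 28.6 and 28.7 CPM (-1.67 ± 0.05, adjusted p = 5.13e-10). In H460 NRG1 fell from 41.4, 30.2 and 31.0 CPM to 16.4, 18.1 and 16.8 CPM (-1.05 ± 0.12, adjusted p = 1.38e-04). In H2023, MET and HGF were thus both lower with CCS1477, as were ERBB3 and NRG1. MST1R, a receptor related to MET, had 6.64 CPM in untreated and 4.46 CPM in treated ABC-1 (-0.61 ± 0.13, adjusted p = 0.00172). In H2023 MST1R fell from 55.9 to 23.8 CPM (-1.28 ± 0.07). Of the list of 10 such genes, 1 of 6 tested rose and 3 fell in H460, 2 of 7 rose and 5 fell in H2023, and both tested fell in ABC-1. Of all tested genes 28.2% rose and 27.9% fell in H460, 28.6% and 31.9% in H2023, and 33.5% and 32.6% in ABC-1. The median log2 changes of the list were -0.04, -0.83 and -1.62, beside 0.00092, -0.0089 and 0.0139 over all tested genes. The ABC-1 count and median rest on MST1R and EPGN alone, and EPGN entered that test only through its DMSO libraries.

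Genes that act on the ligands and receptors changed in each direction. Among 6 genes of ligand shedding, 3 rose and 3 fell in H460, 1 rose and 3 fell of 6 in H2023, and 2 rose and 2 fell of 5 in ABC-1, with medians of -0.11, -0.17 and 0.02. The shares of all tested genes called in either direction were 56.1%, 60.6% and 66.1%. ADAM17, the main sheddase of AREG and TGFA, fell in H460 from 85.4 to 71.2 CPM (-0.33 ± 0.04, adjusted p = 3.20e-04), and less in H2023 (-0.22 ± 0.04) and ABC-1 (-0.19 ± 0.05). ADAM10 in treated ABC-1 fell to 200.6 CPM from 253 (-0.40 ± 0.04, adjusted p = 5.31e-06), rose in H460 (0.12 ± 0.04) and was not called in H2023 (-0.13 ± 0.06). Of 10 genes of receptor turnover, 4 rose and 2 fell in H460, 5 and 2 in H2023 and 4 and 2 in ABC-1 (medians 0.05, 0.19 and 0.10), again near the 56.1%, 60.6% and 66.1% of all tested genes called. CBL, the ubiquitin ligase that marks EGFR for degradation, rose by 0.39 ± 0.04 in ABC-1, to 118 CPM from 86.6 (adjusted p = 6.58e-06), and by 0.34 ± 0.04 in H460, to 84.9 CPM from 63.9 (adjusted p = 3.76e-04). It was not called in H2023 (0.06 ± 0.04, adjusted p = 0.183). LRIG3, of a family of receptor regulators, fell in ABC-1 from 53.7 to 16.4 CPM (-1.75 ± 0.08) and in H2023 from 27.2 to 16.6 CPM (-0.76 ± 0.08).

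Downstream of the receptors, the list of ERK output and feedback genes, which ERK signalling induces, had more members lower than higher in H460 and H2023 and more higher than lower in ABC-1. Of 14 genes, 3 rose and 8 fell in H460 and 2 rose and 9 fell in H2023, with median log2 changes of -0.19 and -0.45, where 27.9% and 31.9% of all tested genes fell. In ABC-1 10 rose and 2 fell, with a median of 1.23, where 33.5% of all tested genes rose. These 10 include FOSL1, at 0.326 CPM with DMSO and 1.52 CPM with CCS1477. It passed the filter only through its CCS1477 libraries and could enter the test only by being higher. The medians over all tested genes were 0.00092, -0.0089 and 0.0139. DUSP4, an ERK phosphatase, fell from 277 to 154 CPM in H460 (-0.92 ± 0.04, adjusted p = 1.95e-06) and from 279.9 to 169 CPM in H2023 (-0.78 ± 0.04, adjusted p = 2.54e-08). In ABC-1 DUSP4 rose from 20.3 to 39.0 CPM (0.87 ± 0.07, adjusted p = 5.20e-07). ETV5, a transcription factor induced by ERK, rose from 13.4 to 68.2 CPM in ABC-1 (2.27 ± 0.06, adjusted p = 1.47e-10), and less in H460 (0.39 ± 0.06) and H2023 (0.31 ± 0.05). Its relative ETV4 fell from 129 to 62.3 CPM in H460 (-1.12 ± 0.05, adjusted p = 1.09e-06), and also in H2023 (-1.73 ± 0.09) and ABC-1 (-0.85 ± 0.11). EGR1, an immediate early factor, rose in ABC-1 from 21.5 to 139 CPM (2.62 ± 0.07) and in H2023 from 20.8 to 120.0 CPM (2.47 ± 0.06). In H460 EGR1 rose from 1.72 to 6.63 CPM (1.81 ± 0.18). Its rise in H460 and H2023 went against the direction of most of the list there.

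Adaptors and kinases of the RAS-ERK cascade and of the PI3K arm changed in both directions. Of 17 adaptor and cascade genes 9 rose and 4 fell in H460, 7 and 4 in H2023 and 9 and 7 in ABC-1 (medians 0.24, 0.02 and 0.14), in lines where 56.1%, 60.6% and 66.1% of all tested genes were called. SHC1, an adaptor of activated receptors, fell from 526 to 351 CPM in H460 (-0.66 ± 0.05, adjusted p = 3.11e-05) and from 282 to 130.2 CPM in H2023 (-1.16 ± 0.04, adjusted p = 2.02e-09). It fell less in ABC-1 (-0.25 ± 0.05). GAB2, a docking protein, fell from 71.2 to 29.2 CPM in ABC-1 (-1.34 ± 0.05, adjusted p = 7.92e-10), fell in H2023 (-0.41 ± 0.07) and was not called in H460 (0.24 ± 0.19). Of 7 genes of the PI3K arm, 4 rose and 2 fell in H460, 6 and 1 in H2023 and 3 and 3 in ABC-1 (medians 0.20, 0.33 and 0.02), beside the same shares of all genes. PIK3R2, a regulatory subunit of PI3K, rose in H460 (0.79 ± 0.07), H2023 (0.43 ± 0.05) and ABC-1 (0.53 ± 0.06). Among other receptor tyrosine kinases, 5 rose and 5 fell of 12 in H460, 4 and 6 of 11 in H2023 and 3 and 6 of 11 in ABC-1 (medians 0.26, -0.37 and -0.38), beside the same shares. AXL, a kinase known to replace EGFR signalling, fell in H2023 from 177 to 101 CPM (-0.85 ± 0.04, adjusted p = 5.96e-08) and also in H460 (-1.47 ± 0.12). FGFR3 in H460 rose from 2.21 to 9.83 CPM (2.04 ± 0.15, adjusted p = 1.93e-05), rose in H2023 (0.82 ± 0.12) and fell in ABC-1 (-0.84 ± 0.05). The collagen receptor DDR1 fell in H460 (-1.03 ± 0.06), H2023 (-0.73 ± 0.06) and ABC-1 (-0.71 ± 0.03).

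Among 10265 genes compared over the 18 libraries, those whose log2(CPM + 1) followed EGFR most closely were ERGIC2 (Pearson r = 0.995), FAM83H (0.994) and CHRAC1 (0.993). For MET they were FOXJ2 (0.989), PIGK (0.988) and CRYBG1 (0.985), and for AREG CHP1 (0.982), PRKCE (0.982) and COMMD3 (0.980). These correlations describe patterns over 18 libraries that share 6 groups and mostly reflect the levels of the 3 lines. CRYBG1, for example, stood at 227 CPM in untreated H2023, 78.3 in ABC-1 and 15.3 in H460, the order of MET.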

How the data were processed

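Directional libraries of total RNA were read as pairs on a DNBSEQ sequencer, per the labels' protocols. How reads were aligned and counted, and whether by strand, is not given in the sources used here; GRCh38 is the build in the submitters' processing notes. The authors deposited log2 values in 1 table per line. A column's line is that of its table, because the tables use the same column names. By the values, they are log2 of scaled reads plus 4, and whole reads within 0.1 were recovered for 100% of values of up to 1000 reads. CPM were computed from the recovered reads of all rows, of which transcript rows held 9.19 to 10.7% and were left out of the fits. The design had no count model, since the deposited unit is log2.

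Each line was fitted with limma-trend (limma 3.58.1, R 4.3.3) on the deposited log2 values of genes with at least 1 CPM in 3 of 6 libraries. Tests were two-sided with Benjamini-Hochberg adjustment over all tested genes and a threshold of 0.05. The constant of 4 makes log2 changes of low genes smaller than those of CPM. Differences between lines were interaction contrasts over 12 or 18 libraries, and they share libraries. Counting intervals and the filter cover counting error only. The script was tested on simulated data. The 9 genes and all lists were chosen with earlier results of these data known. The 9 were always named, with up to 2 genes per list and line by smallest p, genes beside or overlapping them, and the 3 genes most correlated with EGFR, MET and AREG. For some listed genes, values in lines beyond the one that named them are given too. BTC was named as the ligand gene beyond AREG after its values were seen. FOSL1 was named for its limit in the filter of ABC-1, also after its values were seen. Alternatives covered scaling, voom, filters, constants, transcript rows, one fit over 18 libraries, the replicate number as a block, and each library left out in turn.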

Additional observations from a re-analysis of the deposited data

Results flagged for a closer look

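The change with CCS1477 differed between lines, by the limma interaction test, for each gene and pair listed here, in log2 units with the first line minus the second. For H460 minus H2023 the differences were 3.12 for AREG, 2.30 for EREG, 1.25 for TGFA, 1.21 for ERBB3, 0.86 for HBEGF and 0.51 for MET. For H460 minus ABC-1 they were 1.46 for ERBB3, 0.94 for ERBB2, 0.31 for EGFR, -0.53 for HBEGF and -0.76 for ERRFI1. For H2023 minus ABC-1 they were -2.94 for AREG, -1.39 for HBEGF, -1.03 for TGFA, -0.85 for ERRFI1, -0.49 for MET, 0.74 for ERBB2 and 0.29 for EGFR. The values of ERBB3 and EREG in H460 rest on 12 to 37 reads per library. Those of TGFA in H460 rest on 10 to 67, and its difference of 1.25 ran from 0.52 to 1.46 over its alternatives. ERBB2 fell in ABC-1 and rose in H460 and H2023.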

How the results depend on the processing

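The counts of the 9 genes called higher or lower in each line, of all genes called, and of members that differ between lines were within 1.5 times the reported counts under each alternative run. Of 382 alternative values of a gene's change within a line, 379 were on the same side of the threshold in the same direction, and the other 3 were HBEGF in H2023. Differences between lines reversed in direction only where the reported difference had missed the threshold. With 1 library left out, EGFR in H460 minus H2023 ran from -0.0072 to 0.051 and MET in H460 minus ABC-1 from -0.017 to 0.036. With 1 CPM added before the log, AREG in H460 minus ABC-1 was -0.024 and TGFA in H460 minus ABC-1 was -0.49; the cause was not tested. Scaling by library totals shifted the median of all genes in H460 from 0.00092 to 0.07, with 4636 genes higher and 3063 lower in place of 3811 and 3773, and in H2023 gave 4784 higher and 4128 lower in place of 4170 and 4654. Correlations between same-number libraries were weak, from 0.01 to 0.10 in H460, 0.03 to 0.04 in H2023 and -0.10 to -0.04 in ABC-1. With 3 libraries per group they cannot show whether the replicate numbers mark pairs. With the replicate block 7356, 8806 and 8768 genes passed in H460, H2023 and ABC-1, in place of 7584, 8824 and 8949, and the mean difference of TGFA lost its call (-0.41, adjusted p = 0.0905), the only call on the 9 genes that the block ended. Without a filter, ERBB3 in H460 changed by 0.54 in log2 (adjusted p = 0.0954) and EREG by -0.28 (adjusted p = 0.283), neither past the threshold, while ERBB3 passed it in one fit over all 18 libraries (0.54, adjusted p = 0.00157). Of 26 untreated levels, 25 moved by more than 1 SD with the longest transcript as length (1.06 to 2.09 times), 20 with the reads of gene rows as the total (1.10 to 1.11 times) and 5 with transcript rows added (up to 1.09 times). Depth limits these and TGFA in H460 most, with 10 to 67 reads per library.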

Other observations

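Transcript rows, which the fits left out, held few reads of these genes. They were most common for ERBB2, at 6.21% (H460), 4.10% (H2023) and 7.47% (ABC-1) of the reads of its gene row.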
